A study of Mus musculus with 4 samples.

Results

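The 38 genes described here carry out or drive cell division, and they were taken by symbol. All 38 were found among the 55472 rows of the gene table. They were read in cells of mammary tumours grown in female MMTV-PyMT mice aged 13 to 14 weeks, in which the polyoma middle T oncogene is driven in the mammary epithelium by the MMTV promoter. All mice also carried K14Cre, a Cre recombinase under a human keratin 14 promoter, and the Cre-dependent Rosa-tdTomato reporter, on an FVB background. No untreated or transgene-free group is analysed here. Tumour 1 is labelled as from multiple glands of mouse 1, tumour 2 was inguinal and was taken from mouse 2, and mouse 3 gave a thoracic tumour (tumour 3) and an inguinal one (tumour 4). Each tumour was 1 droplet library of dissociated cells depleted of dead cells, read as unique molecular identifiers (UMIs, counts of captured transcript molecules).

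A dividing cell copies its DNA in S phase and then condenses and separates its chromosomes in mitosis, after the gap called G2. Cyclins D and E, with their kinases, take a cell from the gap before S phase into replication. Genes needed for replication are largely switched on by E2F factors, while genes of mitosis are held down by the DREAM complex and switched on by B-MYB and FOXM1, through an element called CHR. In a tumour, dividing cells can be malignant epithelium or host cells such as vessel, immune and connective tissue cells.

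The members were split by role into a G2/M list of 23 genes (mitotic kinases, cyclins A and B, spindle, kinetochore and chromosome genes, with Mki67 and Top2a), an S list of 11 genes (the Mcm2 to Mcm7 helicase, Pcna, Pclaf, Tyms, Rrm2 and Tk1) and 4 genes outside both lists (Hmgb2, Ccne1, Ccnd1 and Ccnd2). Cells were placed in 6 gates by the raw UMIs of 2 genes each. The fibroblast gate needed 10 UMIs of Col1a1 and Col3a1, the endothelial gate 2 of Cdh5 and Pecam1, the macrophage gate 5 of C1qa and C1qb, the T gate 2 of Cd3g and Trbc2, the basal gate 3 of Krt5 and Krt14, and the luminal gate 3 of Krt8 and Krt18. A cell was used if it passed exactly 1 gate. This gave 1353 fibroblast, 497 endothelial, 2600 macrophage, 283 T, 441 basal and 20581 luminal gate cells among 36138 cells kept. No gate was passed by 8959 cells (24.8%), and 1424 (3.94%) passed several and were set aside.

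Libraries held 8434 to 9580 barcodes, with medians of 1922.5 to 3281 UMIs per barcode, and any pair of libraries shared 96 to 129 barcodes. Markers that the gates did not use were checked in each gate. In the fibroblast and endothelial gates 9 of 9 of their own markers were found in at least 10% of cells, in the luminal gate 10 of 10, in the macrophage gate 8 of 9, and in the T and basal gates 7 of 9. The T gate also held RNA of natural killer cell genes (Ncr1, Klrb1c, Klrk1, Gzma and Nkg7), summing to 1726 to 2718 counts scaled to a total of 1000000 (CPM), against at most 16 CPM in any other gate. Of these 5 genes 2 were found in at least 10% of T gate cells. Of the 283 T gate cells, 269 had a UMI of Cd3g, Cd3e or Cd3d, and 236 had a UMI of a natural killer gene. These counts overlap and do not separate natural killer cells from T cells. Of all cells passing the basal markers, 51.8% also passed the luminal gate (89.3% in tumour 2), which left 14 basal gate cells in tumour 2. Luminal markers were found in each non-luminal gate at 4.72% to 35.0% of their luminal gate level. Basal markers were found at 40.0% to 53.6% of their basal gate level in the luminal gate and at 35.0% to 54.3% in the fibroblast gate, where 5 of 9 were in at least 10% of cells. Free RNA and cells captured together can both give this, and the part of either in the results was not tested. Doublets were handled only by setting aside cells of several gates.

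The split by phase is also visible in the promoters of the members, a feature that neither the gates nor the lists used. RefSeq promoter windows (GRCm38.p6, 250 bases before to 50 after the start) were matched for 30 of 38 members, giving 32 windows. The CHR letters TTTGAA, searched on both strands, were present in 16 of 19 G2/M windows (84.2%), in 1 of 11 S windows (9.09%) and in 17.9% of all 32851 windows. An E2F pattern, TTTNNCGC on either strand, was present in 6 of 11 S windows (54.5%), in 1 of 19 G2/M windows (5.26%) and in 5.17% of all windows. The CCAAT letters, a box bound by NF-Y, were present in 94.7% of G2/M windows and 81.8% of S windows, against 37.4% of all. A match describes the letters only and is no evidence of binding in these cells. No match was found for CHR in the windows of Birc5, Bub1 and Ccnb1. The windows of 4 members whose levels differed between gates are shown 5′ to 3′ on the strand of the gene, with matches to any of the 3 patterns in capitals. Top2a (chr11:99024140-99024439, minus strand) and Cdc20 (chr4:118437294-118437593, minus strand) are of the G2/M list, and Pclaf (chr9:65890073-65890372, plus strand) and Mcm3 (chr1:20820263-20820562, minus strand) of the S list.
Top2a: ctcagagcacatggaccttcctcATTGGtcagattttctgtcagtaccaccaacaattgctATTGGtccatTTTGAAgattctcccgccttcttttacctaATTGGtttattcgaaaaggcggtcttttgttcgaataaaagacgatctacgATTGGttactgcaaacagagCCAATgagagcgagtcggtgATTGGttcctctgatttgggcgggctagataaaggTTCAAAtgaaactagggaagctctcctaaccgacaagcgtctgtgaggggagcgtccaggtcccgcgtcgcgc
Cdc20: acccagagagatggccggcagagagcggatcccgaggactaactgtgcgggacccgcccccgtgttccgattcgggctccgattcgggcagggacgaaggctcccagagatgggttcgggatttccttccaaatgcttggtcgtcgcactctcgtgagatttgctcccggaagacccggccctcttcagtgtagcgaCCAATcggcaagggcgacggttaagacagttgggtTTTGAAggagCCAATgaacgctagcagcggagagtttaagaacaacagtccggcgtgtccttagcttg
Pclaf: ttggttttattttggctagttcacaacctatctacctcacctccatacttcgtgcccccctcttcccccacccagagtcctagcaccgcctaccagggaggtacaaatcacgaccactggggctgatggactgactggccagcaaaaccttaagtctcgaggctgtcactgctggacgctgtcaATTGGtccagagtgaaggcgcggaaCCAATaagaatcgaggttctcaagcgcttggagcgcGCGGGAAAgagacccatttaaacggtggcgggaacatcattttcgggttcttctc
Mcm3: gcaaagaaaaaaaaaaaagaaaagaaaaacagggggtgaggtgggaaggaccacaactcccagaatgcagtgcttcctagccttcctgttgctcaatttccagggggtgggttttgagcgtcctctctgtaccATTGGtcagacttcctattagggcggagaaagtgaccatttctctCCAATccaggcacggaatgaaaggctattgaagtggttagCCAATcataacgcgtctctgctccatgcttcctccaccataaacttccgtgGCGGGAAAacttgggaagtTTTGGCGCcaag
In these windows the CHR match nearest the start lay 23 bases before it in Top2a and 18 bases before it in Cdc20. Pclaf held an E2F match 5 bases before its start, and Mcm3 held 2 E2F matches after its start, at bases 19 and 38.

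**Figure D1:**
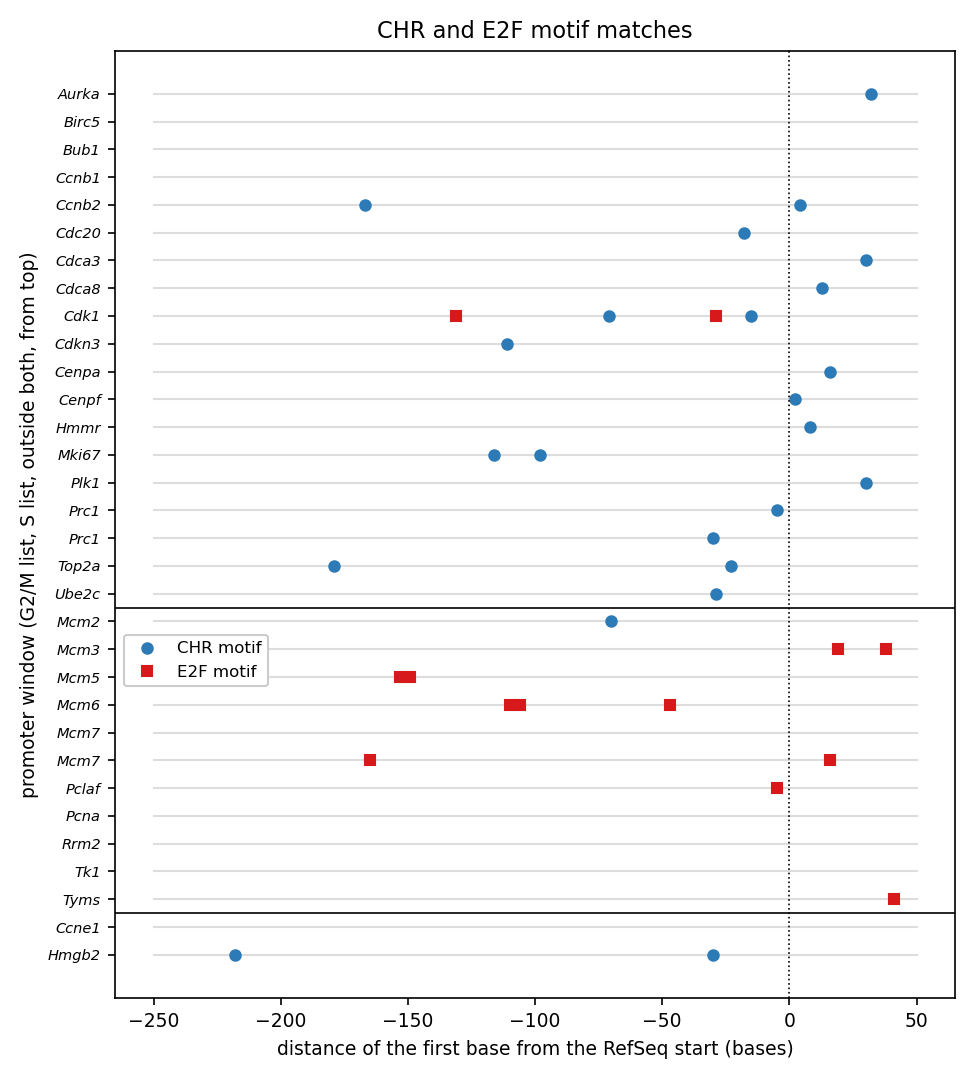
Position of CHR (blue circles) and E2F (red squares) matches, by the first base relative to the RefSeq start, in 32 promoter windows of 30 members (Prc1 and Mcm7 have 2 windows each), G2/M genes at the top. CHR matches occur in 16 of 19 G2/M windows, and E2F matches 6 of 11 S windows.

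Cycling cells were most frequent in the T and endothelial gates and least frequent in the fibroblast and basal gates. A cell was called cycling if it held at least 3 UMIs of the S list or at least 3 of the G2/M list. Before this call every cell was thinned at random to 1500 UMIs, and cells with fewer UMIs were left out. The depth limit kept 187 of 283 T, 411 of 497 endothelial and 19774 of 20581 luminal gate cells. Over the 3 mice the cycling share was 20.7% ± 4.39 (SD, n = 3) in the T gate and 16.8% ± 4.22 in the endothelial gate. Within the T gate 18.1% of 160 cells with a natural killer gene UMI and 33.3% of 27 cells without one were cycling, with exact intervals of 12.5% to 25.0% and 16.5% to 54.0%, a split made after the natural killer genes were seen. It was 11.6% ± 5.25 in the macrophage gate and 10.5% ± 1.07 in the luminal gate. In the basal gate it was 6.37% ± 1.34 and in the fibroblast gate 6.28% ± 1.76. The basal share was 4.17% with the gate minimums doubled and 2.56% without the deepest 5% of cells. Macrophage and luminal shares differed by less than the macrophage SD over mice, but not by less than the luminal SD. Basal and fibroblast shares differed by less than the spread of either gate over mice. No test was run on the shares, because an exact sign-flip test over 3 mice cannot give p below 0.25.

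By tumour, 25.0%, 16.2%, 19.0% and 23.9% of T gate cells were cycling in tumours 1 to 4, out of 20, 37, 84 and 46 cells. The exact (Clopper-Pearson) 95% interval of tumour 1 ran from 8.66% to 49.1%, so order among tumours is not resolved in this gate. Endothelial gate shares were 20.7%, 17.3%, 12.1% and 12.6%. The T and endothelial shares were above the luminal share of the same tumour in tumours 1, 2 and 4, and in tumour 3 only the T share was. Fibroblast gate shares were 6.77%, 7.74%, 4.46% and 4.11%, each below the luminal share of its tumour. Basal gate shares were 7.14%, 7.14%, 5.53% and 2.53%, also below luminal in 4 of 4 tumours, although they rest on 2, 1, 14 and 2 cycling cells. The intervals cover counting error only.

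Luminal gate shares were 9.50%, 10.5%, 15.2% and 8.95%. Both tumours of mouse 3 contributed 3795 and 5007 luminal cells, and their intervals, 14.1% to 16.4% for the thoracic and 8.17% to 9.77% for the inguinal tumour, did not overlap. In the same pair of tumours the intervals overlapped in each of the 5 non-luminal gates. With 1 library each, gland and library cannot be told apart.

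Macrophage gate shares were 17.6%, 9.31%, 6.94% and 9.39%. Tumour 1 stood above the others, but only 238 of its 681 macrophage gate cells reached 1500 UMIs, and cycling cells of this gate were deeper than the rest in 4 of 4 tumours. With all cells at full depth its share was 10.1%, beside 12.5%, 10.0% and 11% in the other tumours. Without thinning, the mean share was 21.7% in the T gate, 17.5% in the endothelial, 11% in the macrophage, 17.2% in the luminal, 6.0% in the basal and 8.64% in the fibroblast gate. The median luminal gate cell held 3295 UMIs against 1638 to 2556 in the non-luminal gates, and without thinning the endothelial and luminal means differed by less than their spread over mice. The shares also moved with the thinning depth. At 1000 UMIs the fibroblast share fell to 3.67% and the macrophage share to 7.05%, and at 2000 UMIs the endothelial share was 28.8% and the luminal share 13.8%.

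**Figure D2:**
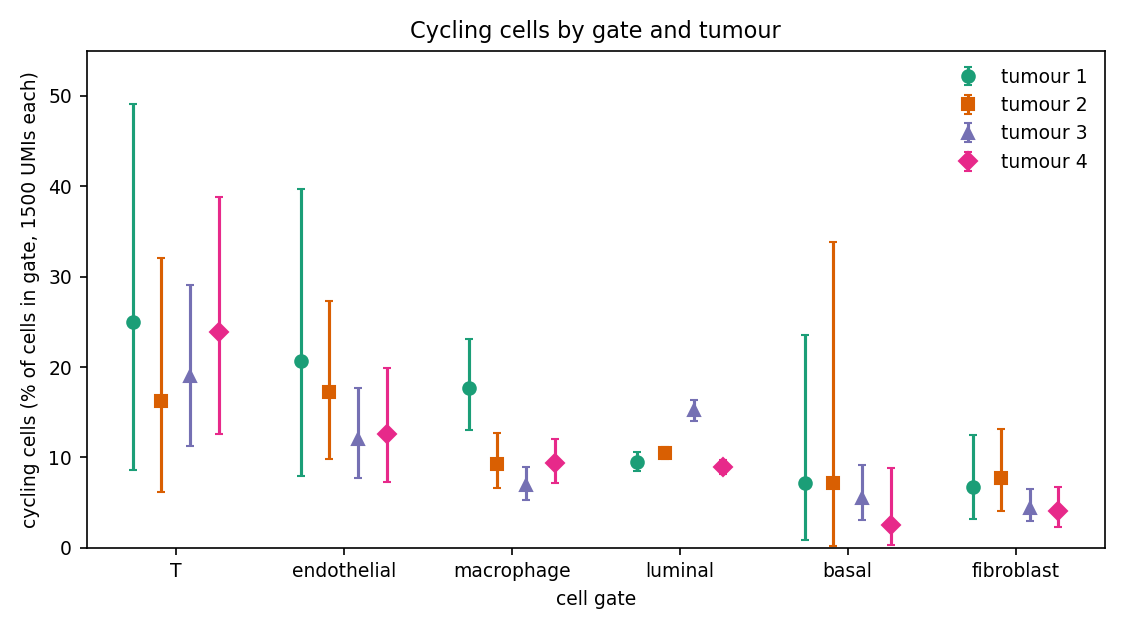
Share of cycling cells in each gate (y axis, percent of gate cells thinned to 1500 UMIs) for tumours 1 to 4, with exact 95% intervals. T gate values run from 16.2% to 25.0% and fibroblast gate values from 4.11% to 7.74%, and luminal tumour 3 (15.2%) stands above the other luminal values.

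The number of cells near the limit was not small. Among luminal gate cells, 580 of the 2146 cycling cells sat exactly at the limit and 971 others lay 1 UMI below it. In the T gate 4 of 38 cycling cells sat at the limit and 18 cells lay 1 UMI below. Of cycling cells in 1 gate or in none, with cells of several gates left out, luminal gate cells made up 44.2% in tumour 1 and 61.6% to 82.7% in the others. Macrophage gate cells made up 3.51% to 7.79% and T gate cells 0.601% to 1.71% of the same cells. Cells in no gate had a cycling share of 13.3% ± 2.85 (SD, n = 3) and made up 10.5% to 46.3% of them.

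Genes of the G2/M list outweighed those of the S list in cycling cells of each gate. A cycling cell was placed on the S side if it held more UMIs of the S list than of the longer G2/M list, so the side is a relative measure between gates and not a share of time in S phase. The mean share on the S side was 22.6% ± 7.23 (SD, n = 3) in the macrophage gate, 19.6% ± 5.48 in the luminal, 17.8% ± 16.8 in the T, 17.6% ± 15.4 in the endothelial and 12.5% ± 3.66 in the fibroblast gate. These means differed by less than the spread over mice, except for the fibroblast mean. It lay below the luminal and macrophage means by more than the SD of either gate compared. It lay below the T and endothelial means by more than its own SD but by less than theirs. The gap to the luminal and macrophage means did not hold in other settings. Without thinning the fibroblast, luminal and macrophage means were 27.2%, 29.3% and 28.1%. With a cycling minimum of 2 UMIs they were 25.1%, 26.7% and 33.2%. The T mean moved to 30.3% at 1000 UMIs, 33.1% at 2000, 32.5% without thinning, 31.1% without Mki67, Top2a, Cdk1 and Ccna2, and 10% without mouse 3, and the endothelial mean moved to 30.5% with a minimum of 2. In the basal gate 0 of 19 cycling cells were on the S side. This allows a share of up to 15.8% by the limit of 3 counts, and the exact 95% interval ends at 17.6%. Both limits hold for this setting only. The basal mean was 22.2% at 2000 UMIs, 8.7% without thinning and 0 with a cycling minimum of 4. Without thinning 5 of 19 basal cycling cells of tumour 3 were on the S side. Pooled over tumours, 7 of 62 fibroblast, 13 of 57 endothelial, 46 of 189 macrophage, 10 of 38 T and 433 of 2146 luminal cycling cells were on the S side. In the luminal gate tumour 2 had 25.9% on the S side (interval 23% to 29.1%), above tumours 1, 3 and 4 at 16.2%, 16.6% and 16.7%, whose intervals ended at or below 20.9%.

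Summed over all gate cells, without a cycling call, T gate cells had the highest CPM of the S list in 3 of 4 tumours and came close to the endothelial gate in the other. The S list summed to 803, 708, 644 and 708 CPM in T gate cells of tumours 1 to 4. In endothelial gate cells it summed to 405, 719, 394 and 437 CPM, with tumour 2 high. Macrophage markers in the endothelial gate were also highest in tumour 2, at 3511 CPM against 532 to 2153 CPM in the other tumours, and their part was not tested. Luminal gate cells had 227, 336, 389 and 261 CPM, macrophage gate cells 306, 326, 270.4 and 302 CPM, fibroblast gate cells 206, 272, 188 and 142 CPM and basal gate cells 159.8, 197, 214 and 165 CPM. The T gate lay above the luminal gate without overlap, and the basal gate lay below it without overlap. The G2/M list summed to 1082, 1485, 1048 and 1177 CPM in the T gate and 1049.8, 1112, 802 and 1150.2 CPM in the endothelial gate. It summed to 489, 688, 896 and 545 CPM in the luminal gate, 593, 586, 499 and 434 CPM in the macrophage gate and 404, 525, 458 and 376 CPM in the fibroblast gate. In the basal gate it was 461, 1010.2, 507 and 282 CPM, where the high value of tumour 2 rests on 41 UMIs from 14 cells.

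The log2 ratio of S list to G2/M list UMIs was −0.74 ± 0.32 (SD, n = 3) in the T gate and −0.85 ± 0.11 in the macrophage gate. It was −1.07 ± 0.39 in the endothelial, −1.08 ± 0.21 in the fibroblast, −1.10 ± 0.06 in the luminal and −1.68 ± 0.61 in the basal gate. The macrophage ratio was above the luminal ratio of the same tumour in 4 of 4 tumours, at −0.96, −0.84, −0.88 and −0.52 against −1.11, −1.03, −1.20 and −1.06. This difference of mean ratios is larger than the spread of either gate over mice. Much of the S list sum is Pcna, at a mean of 94.7 CPM in macrophage and 55.6 CPM in luminal gate cells. The whole S list averaged 305 and 294 CPM in these gates. Pcna was also found in 10.4% of non-cycling macrophage and 5.44% of non-cycling luminal gate cells. The ratio without Pcna was not tested, so the difference may not reflect a balance of phases. The T gate ratio was above the luminal one in tumours 1, 3 and 4 and below it in tumour 2. Endothelial, fibroblast and basal ratios differed from the luminal ratio by less than their own spread.

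**Figure D3:**
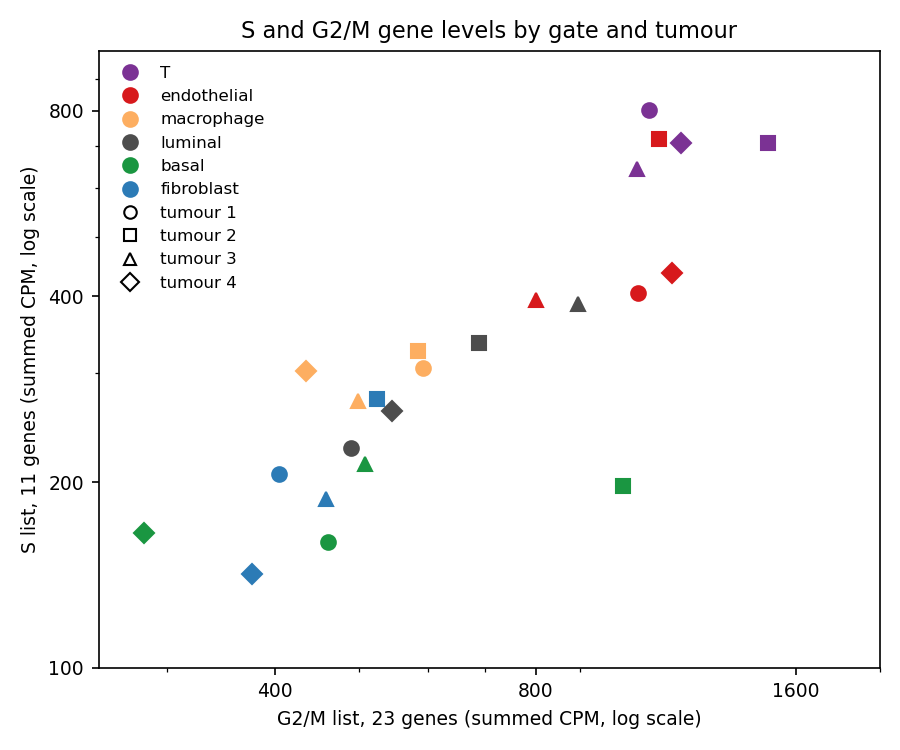
Summed CPM of the S list (y axis) against the G2/M list (x axis), both on log scales, for each gate (colour) and tumour (symbol). T gate points lie at upper right with S list sums from 644 to 803 CPM, and fibroblast points at lower left with 142 to 272 CPM.

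Each gene was then compared between gates on UMIs summed per gate and mouse, with mouse as a block (edgeR quasi-likelihood test, Benjamini-Hochberg over 10231 genes, called at an adjusted p under 0.05). Tumours 3 and 4 were summed as mouse 3. The basal gate of mouse 2 had under 20 cells and was dropped, so the basal comparison rests on mice 1 and 3. Ccne1 did not pass the count filter, which leaves 37 members. The comparisons share the luminal sums and are not independent of each other. Below, a difference given in parentheses or with an adjusted p is the log2 fold change of this fit, against the luminal gate unless another gate is named, with its standard error (SE) where shown.

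In T gate cells 17 of 37 members were higher than in luminal gate cells (45.9%), against 10.1% of all genes, and 1 was lower, against 12% of all genes. The median log2 fold change was 0.97 over the members and −0.26 over all genes tested. By role, 9 of 23 G2/M genes and 6 of 11 S genes were higher and none was lower. Natural killer genes were present in this gate, as given above, and their part in these differences was not tested. With only T gate cells that had a CD3 UMI, a choice made after the natural killer genes were seen, 18 members were called again. That choice kept 269 of the 283 cells, so it could hardly change the count. It cannot separate natural killer cells from T cells. Without mouse 1 the count fell to 9.

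In endothelial gate cells 10 of 37 members were higher than in luminal gate cells (27.0%, against 17.6% of all genes), and Cdca3, a regulator of mitotic entry, was lower, against 20.2% of all genes. The median over members was 0.36, against −0.15 over all genes. The 10 were Top2a, Cdk1, Aurkb, Cenpf, Prc1, Mcm3, Tyms, Hmgb2, Ccnd1 and Ccnd2. The count was 7 without mouse 1, 4 without mouse 3 and 7 without the mouse block.

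In macrophage gate cells 5 of 37 members were higher (13.5%, against 23% of all genes) and 5 lower (13.5%, against 24.6% of all genes), so 27.0% of members were called in either direction, against 47.5% of all genes. The median was −0.005 over members and −0.08 over all genes. Those higher were Cenpa, Pcna, Mcm3, Hmgb2 and Ccnd2, and those lower were Ube2c, Pbk, Spc24, Rrm2 and Ccnd1. With the RLE scaling 5 were higher and 3 lower, and with DESeq2 5 and 2. With cells of several gates given to their non-luminal gate 6 were called.

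In fibroblast gate cells 18 of 37 members were lower than in luminal gate cells (48.6%, against 24.9% of all genes), and only Ccnd2 was higher, against 24% of all genes. In either direction 51.4% of members and 48.9% of all genes were called, so it is the direction of the calls that was uneven. The median was −0.67, against −0.09 over all genes. By role, 10 of 23 G2/M genes and 6 of 11 S genes were lower. This count was sensitive to scaling and to mice, with 11 members called under RLE size factors, 7 with DESeq2, 12 without mouse 1 and 4 without mouse 3. RLE scaling moved the median of all genes from −0.09 to 0.13.

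In basal gate cells 3 of 37 members were lower than in luminal gate cells (8.11%, against 5.71% of all genes) and 1 was higher, against 6.25% of all genes. The lower genes were Birc5, Pbk and Spc24, and the higher gene was Ccnd2. The median was −0.42 over members and −0.09 over all genes. With the gate minimums doubled 1 gene was called. Without mouse 3 the basal gate has 1 sample, assumed to vary like the other gates, and 1 gene was called.

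Comparisons were also made among host gates. T gate cells exceeded macrophage gate cells in 12 of 37 members (32.4%, against 5.87% of all genes) and were lower in none, against 11.7% of all genes. At an unadjusted p under 0.05, 19 members passed, and DESeq2 called 13. The count was 7 without mouse 1 and 6 without mouse 3. Fibroblast gate cells were lower than endothelial gate cells in 18 of 37 members (48.6%, against 11.8% of all genes) and higher in Ccnd2 only, against 14.9% of all genes. The median was −0.94 over members and 0.03 over all genes, and 9 members were called without mouse 3.

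**Figure D4:**
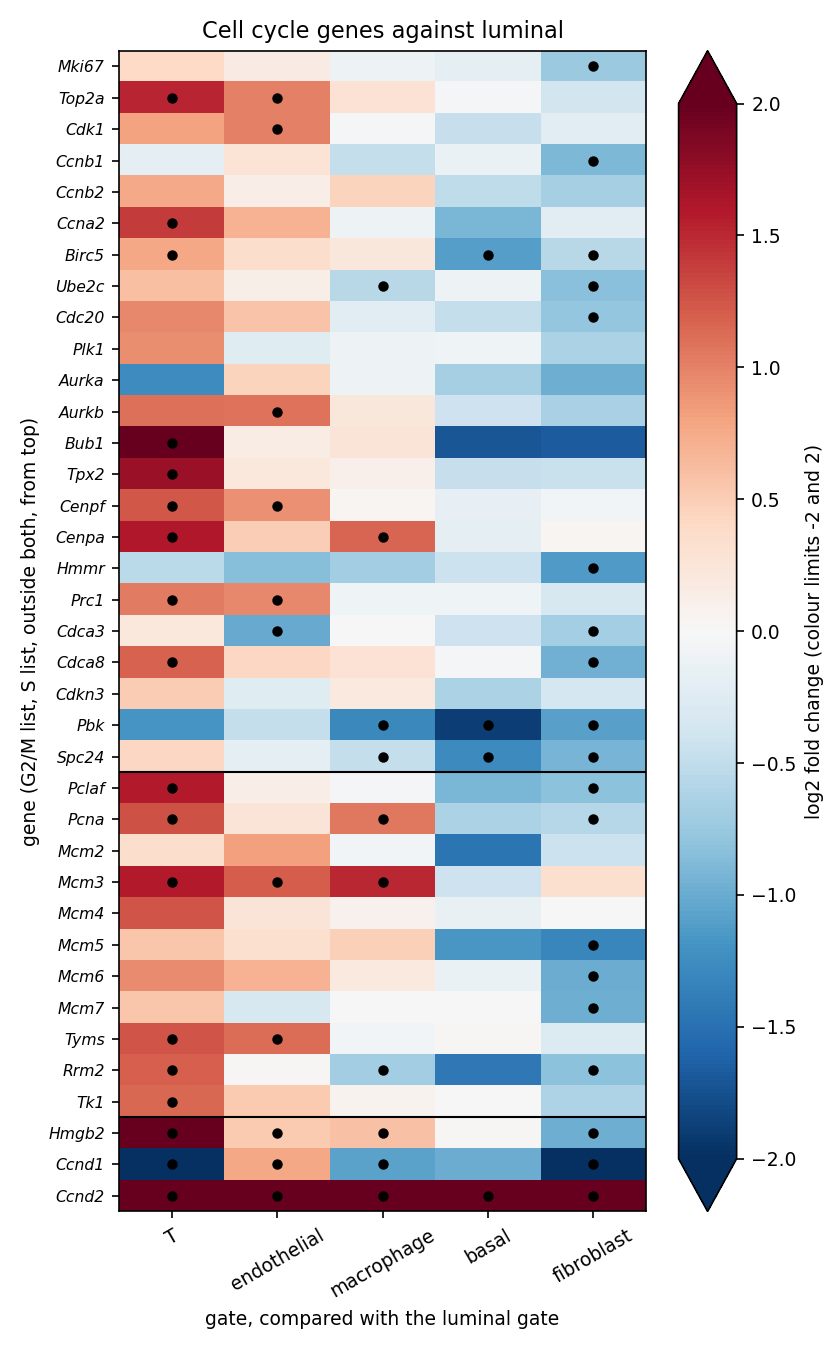
Log2 fold change of each of 37 members in 5 gates against the luminal gate (red higher, blue lower, colour limits −2 and 2), with a black dot where the adjusted p was under 0.05. Dots lie on red cells for 17 members in the T column and on blue cells for 18 in the fibroblast column, and Ccnd2 is dotted in every column.

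Across the 5 comparisons with the luminal gate 31 members were called at least once. Of all genes tested, 12% (basal) to 48.9% (fibroblast) were called in a single comparison. The share of all genes called at least once was not computed, so these counts are a description only. Ccnb2, Plk1, Aurka, Cdkn3, Mcm2 and Mcm4 were never called, and 7 members were called higher in some gates and lower in others. Ccnd2 was the only member higher in all 5.

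Among chromosome and DNA topology genes, Top2a, the topoisomerase that untangles replicated DNA, was higher than luminal in the T and endothelial gates. It was at 107, 159.9, 82.9 and 106 CPM in the T gate and 116, 75.7, 78 and 114 CPM in the endothelial gate, against 25.7, 51, 47.3 and 31.6 CPM in the luminal gate of tumours 1 to 4. Neither gate overlapped the luminal values. The log2 fold change against luminal was 1.53 ± 0.27 SE, adjusted p = 8.2e-05, in the T gate, and 1.01 ± 0.23 SE, adjusted p = 0.00081, in the endothelial gate. Macrophage (0.28), basal (-0.02) and fibroblast (-0.37) gates did not pass. Mki67, which encodes the Ki-67 antigen used to score proliferation, was sparse, with 11 UMIs in all T gate cells. It was at 24.6, 22.8, 19.5 and 17.7 CPM in the T gate, 28.9, 23.7, 24 and 12.3 CPM in the endothelial, 14.8, 8.34, 11.7 and 14 CPM in the macrophage and 13.1, 19.4, 19.2 and 12.6 CPM in the luminal gate. The only call was in fibroblasts, at 13, 11.1, 11.2 and 4.87 CPM, with a log2 fold change of -0.74 ± 0.29 SE, adjusted p = 0.034. Basal gate values of 9.4, 49.3, 18.3 and 0 CPM rest on at most 13 UMIs a tumour. Cenpa, the centromeric histone H3 variant, was at 107, 159.9, 132 and 97.4 CPM in T, 68.1, 82.3, 71.5 and 75.4 CPM in macrophage and 30.7, 41, 62.9 and 36.3 CPM in luminal gate cells. It was higher than luminal in the T gate (1.6, adjusted p = 3.1e-06) and the macrophage gate (1.17, adjusted p = 5.2e-07).

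Among kinases and cyclins of mitosis, Cdk1, the kinase that starts mitosis, was at 48.2, 132, 54 and 55.4 CPM in endothelial gate cells and 20.00, 35.4, 42.7 and 25.3 CPM in luminal gate cells. Endothelial values did not overlap the luminal ones, and tumour 2 was highest by far (1.0 ± 0.27 SE, adjusted p = 0.0041). The T gate, at 32.8, 91.4, 43.9 and 53.1 CPM, overlapped and did not pass (0.81, adjusted p = 0.118). Macrophage, fibroblast and basal gates had 28.6, 16.7, 29.7 and 16.7 CPM, 23.5, 25.9, 28.5 and 26.3 CPM and 28.2, 98.6, 21.1 and 14.6 CPM, with no call. Ccnb1, the B cyclin of Cdk1, was low everywhere, at 9.68, 11.7, 20.6 and 10.1 CPM in luminal and 2.61, 7.41, 7.27 and 10.7 CPM in fibroblast gate cells, where it was lower (-0.9, adjusted p = 0.034). Its other values were 16.4, 11.4, 14.6 and 0 CPM in T, 38.5, 9.46, 14 and 27.7 CPM in endothelial, 2.96, 9.38, 10.8 and 6.0 CPM in macrophage and 9.4, 24.6, 15.5 and 4.86 CPM in basal gate cells, with no call. Aurkb, the kinase of the chromosomal passenger complex, was higher in endothelial than in luminal (1.08) and lower in fibroblast than in endothelial gate cells (-1.73, adjusted p = 0.011). Pbk, a mitotic kinase, was lower than luminal in macrophage (-1.3, adjusted p = 0.0006), basal (-1.88, adjusted p = 0.026) and fibroblast gate cells (-1.09, adjusted p = 0.005). Bub1, a spindle checkpoint kinase, had the largest T gate difference of the G2/M list (2.23 ± 0.75 SE, adjusted p = 0.032), but it rests on 8 UMIs in that gate, at 3, 0, 4 and 1 in tumours 1 to 4.

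Among genes of the spindle, kinetochore and anaphase machinery, Birc5 (survivin, a partner of Aurkb) was at 139, 171, 127 and 124 CPM in the T gate and 64.5, 95.5, 102 and 70.8 CPM in the luminal gate. The T values lay above all luminal values (0.77 ± 0.23 SE, adjusted p = 0.013). Fibroblast values, at 60.02, 61.2, 59.3 and 42.8 CPM, lay below all luminal values (-0.56 ± 0.19 SE, adjusted p = 0.015). Basal gate cells had 37.6, 172, 35.2 and 34 CPM, and the call of -1.1, adjusted p = 0.010, leaves out tumour 2. Endothelial and macrophage gate cells, at 164, 123, 96 and 145 CPM and at 99.7, 87.6, 53.5 and 61.4 CPM, were not called. Ube2c, the ubiquitin carrier of the anaphase-promoting complex, was at 64.5, 96.6, 131 and 76 CPM in luminal gate cells. It was lower in macrophage gate cells, at 53.3, 55.2, 48.6 and 30.02 CPM (-0.56, adjusted p = 0.013), and in fibroblast gate cells, at 41.8, 66.7, 52.6 and 41.8 CPM (-0.83, adjusted p = 0.0009). T gate cells had 73.7, 171, 146 and 159 CPM, endothelial 86.7, 151, 94 and 135 CPM and basal 94, 73.9, 86 and 38.9 CPM, none of which passed against luminal. Against macrophages the T gate value did pass (1.16, adjusted p = 0.0012). Tpx2, which nucleates spindle microtubules, was higher in T gate cells than in luminal (1.72) and macrophage gate cells (1.62, adjusted p = 0.0016). Hmmr, a spindle protein, was lower in fibroblast than in luminal gate cells (-1.13, adjusted p = 0.012). Spc24, of the Ndc80 kinetochore complex, was lower than luminal in the basal (-1.28, adjusted p = 0.0054), fibroblast (-0.94) and macrophage (-0.47) gates. Cdca3 was lower in endothelial (-1.0, adjusted p = 0.047) and fibroblast (-0.68) gate cells.

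Genes of the replication fork in the S list were called in several gates. Pclaf, a partner of Pcna, was at 221, 285, 244 and 248 CPM in T gate cells and 61, 101, 107 and 72 CPM in luminal gate cells, with no overlap (1.59 ± 0.22 SE, adjusted p = 2.4e-06). It was at 49.6, 76, 39.7 and 28.2 CPM in fibroblasts (-0.82, adjusted p = 0.0021). Endothelial, macrophage and basal gates had 125, 175, 66 and 95.3 CPM, 78, 73, 54.4 and 50.03 CPM and 37.6, 148, 42.3 and 29.2 CPM, with no call. Pcna, the clamp that holds the polymerases on DNA, was at 164, 126, 107 and 159 CPM in the T gate, 91.8, 98, 86.8 and 105 CPM in the macrophage gate and 49.3, 60.1, 66 and 50.5 CPM in the luminal gate. Both the T gate (1.28 ± 0.22 SE, adjusted p = 6.6e-05) and the macrophage gate (1.05 ± 0.16 SE, adjusted p = 3.2e-06) were above all luminal values. Fibroblasts, at 36.5, 40.8, 40.8 and 35 CPM, were below them (-0.58, adjusted p = 0.014). Endothelial and basal gates had 67.4, 128, 68 and 58.4 CPM and 47, 0, 32.4 and 34 CPM and did not pass.

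Of the genes of the Mcm helicase, a ring of 6 subunits that unwinds DNA, Mcm3 was called in macrophages. Mcm3 was at 21.7, 24, 19.3 and 25.3 CPM in macrophage and 6.97, 11, 14.3 and 7.95 CPM in luminal gate cells, with no overlap (1.5 ± 0.23 SE, adjusted p = 4.2e-06). The fold changes of Mcm2, Mcm4, Mcm5, Mcm6 and Mcm7 in the same comparison were -0.05, 0.09, 0.48, 0.19 and -0.0047, none of which passed, and the difference between Mcm3 and the others was not tested. Mcm3 was also higher than luminal in endothelial (1.21, adjusted p = 0.0051) and T gate cells (1.59, adjusted p = 0.010). Mcm5 was at 9.86, 12.8, 21.4 and 9.42 CPM in luminal and 5.22, 5.56, 7.83 and 1.95 CPM in fibroblast gate cells, where it was lower (-1.31 ± 0.35 SE, adjusted p = 0.003), as were Mcm6 (-1.0) and Mcm7 (-0.97). T, endothelial, macrophage and basal gates had 16.4, 22.8, 14.6 and 26.6 CPM, 0, 28.4, 22 and 18.5 CPM, 10.9, 18.8, 15.7 and 13.3 CPM and 9.4, 0, 5.64 and 4.86 CPM, with no call and few UMIs outside the macrophage gate. Mcm6 was lower in fibroblast than in endothelial gate cells (-1.69, adjusted p = 0.0036).

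Among enzymes that supply nucleotides, Tyms, which makes thymidylate, was at 86.7, 142, 96 and 98.4 CPM in endothelial, 156, 57.1, 87.8 and 70.8 CPM in T and 32.4, 46.7, 52.5 and 34.6 CPM in luminal gate cells. Neither the endothelial gate (1.12 ± 0.25 SE, adjusted p = 0.00065) nor the T gate (1.25 ± 0.31 SE, adjusted p = 0.0035) overlapped the luminal values. Macrophage, fibroblast and basal gates had 39.5, 32.3, 27 and 28.7 CPM, 31.3, 48.2, 30.8 and 29.2 CPM and 9.4, 0, 50.7 and 24.3 CPM, with no call. Rrm2, the regulated subunit of ribonucleotide reductase, was at 57.4, 34.3, 48.8 and 53.1 CPM in T, 8.89, 13.5, 12.1 and 8.01 CPM in macrophage and 18.8, 19.4, 32.9 and 18.9 CPM in luminal gate cells. The T gate was above (1.2, adjusted p = 0.029) and the macrophage gate below luminal (-0.7, adjusted p = 0.045), and the T gate exceeded the macrophage gate by 1.9 ± 0.45 SE, adjusted p = 0.0027. Fibroblasts were lower than luminal, at 15.7, 20.4, 13.4 and 2.92 CPM (-0.82, adjusted p = 0.034), while endothelial and basal gates had 28.9, 52, 8.0 and 30.8 CPM and 0, 0, 9.87 and 4.86 CPM and were not called. Tk1, thymidine kinase, was at 49.2, 22.8, 39 and 97.4 CPM in T and 13.5, 37, 26.7 and 20.5 CPM in luminal gate cells (1.15, adjusted p = 0.030), and these values overlapped. Its levels in endothelial, macrophage, basal and fibroblast gates were 28.9, 85.2, 24 and 33.8 CPM, 20.7, 27.1, 16.6 and 15.3 CPM, 28.2, 49.3, 19.7 and 14.6 CPM and 15.7, 25.9, 12.3 and 12.7 CPM, with no call. In macrophages Pcna and Mcm3 were thus above and Rrm2 below the luminal level.

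Hmgb2, a chromatin protein that bends DNA, was at 746, 948, 644 and 797 CPM in the T gate. Luminal gate cells had 156, 158, 288 and 173 CPM, with tumour 3 high, and the T values lay far above them (2.06 ± 0.18 SE, adjusted p = 6.1e-10). Endothelial values were 327, 379, 274 and 289 CPM (0.53, adjusted p = 0.024) and macrophage values 268, 215, 187 and 195 CPM (0.58, adjusted p = 0.0049). The macrophage CPM was above the luminal CPM in 2 of 3 mice, and in tumour 3 it was below, at 187 against 288 CPM. Fibroblast values, at 128, 72.3, 95.7 and 89.5 CPM, were lower (-0.98, adjusted p = 6.4e-05), and basal values were 179, 345, 204 and 155 CPM, with no call. Because Hmgb2 did not enter the cycling call, it gives a separate reading of it. A UMI of Hmgb2 was found in 61.6% of cycling and 9.57% of other luminal gate cells, both at 1500 UMIs. In the T gate it was found in 37 of 38 cycling cells (97.4%) and in 36.2% of the others. In the endothelial gate the shares were 73.7% and 17.5%, in the macrophage gate 66.7% and 15.8%, in the basal gate 68.4% and 13.0%, and in the fibroblast gate 61.3% and 6.64%. Non-cycling T gate cells held Hmgb2 more often than non-cycling cells of any other gate.

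The D cyclins, which couple growth signals to entry into S phase, had another order of gates than the cycling share. Ccnd2 (chr6:127125162-127152193, minus strand, GRCm38) was at 292, 269, 719 and 411 CPM in fibroblast gate cells, where the cycling share was low. It was at 205, 285, 258 and 150.5 CPM in T gate cells and at 2.17, 1.06, 5.83 and 3.44 CPM in luminal gate cells. Fibroblast and T gate values did not overlap the luminal ones, with log2 fold changes of 7.23 ± 0.34 SE, adjusted p = 1.2e-16, and 6.47 ± 0.39 SE, adjusted p = 2.2e-13. Endothelial values were 38.5, 56.8, 118 and 52.3 CPM (4.45, adjusted p = 7.2e-10) and macrophage values 20.7, 42.7, 29.2 and 23.3 CPM (3.82, adjusted p = 4.8e-10). Basal values were 47, 0, 280.5 and 38.9 CPM, with tumour 3 far above the rest and none among the 14 cells of tumour 2 (5.83, adjusted p = 8.7e-12). Fibroblast markers summed to 335 to 1004 CPM in the basal gate, below the 13625 to 16305 CPM of the fibroblast gate, and their part in the basal Ccnd2 level was not tested.

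Ccnd1 (chr7:144929931-144939925, minus strand, GRCm38) had a different order. It was at 250.4, 431, 324 and 326 CPM in endothelial and 76.8, 279, 162 and 129 CPM in luminal gate cells, so endothelial values exceeded the luminal value of the same tumour in 4 of 4 tumours (0.78 ± 0.25 SE, adjusted p = 0.014). It was at 18.3, 33.4, 30.2 and 50.6 CPM in fibroblast (-2.35, adjusted p = 8.9e-08), 16.4, 11.4, 58.5 and 26.6 CPM in T (-2.24, adjusted p = 0.00022) and 66.2, 55.2, 55.3 and 55.4 CPM in macrophage gate cells (-1.08, adjusted p = 0.0007). Basal values were 18.8, 98.6, 94.4 and 77.7 CPM and did not pass (-0.99, adjusted p = 0.072). Luminal markers lay at 4.72% to 8.46% of the luminal level in the fibroblast gate, and their part in its Ccnd1 level was not tested. Between fibroblast and endothelial gate cells the D cyclins differed in opposite directions, by -3.13 for Ccnd1 and 2.79 for Ccnd2 (adjusted p = 5.8e-09 and 3.7e-07). T gate cells exceeded macrophage gate cells in Ccnd2 (2.65, adjusted p = 5.3e-06).

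**Figure D5:**
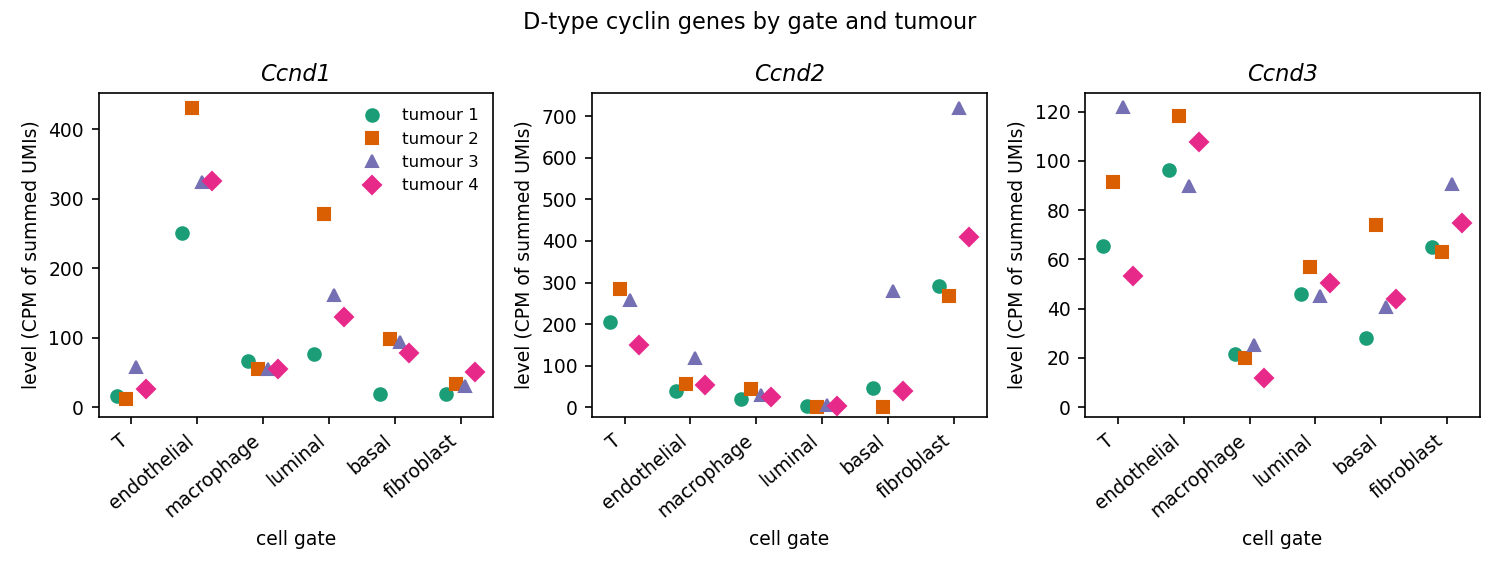
CPM of Ccnd1, Ccnd2 and Ccnd3 (y axes, linear and separate for each gene) in each gate for tumours 1 to 4. Ccnd1 is highest in the endothelial gate (250.4 to 431 CPM) and Ccnd2 in the fibroblast gate (269 to 719 CPM), while luminal Ccnd2 stays between 1.06 and 5.83 CPM.

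Shares of cells with a Ccnd2 UMI among cycling and other cells are given here without a test, and the order differed between gates. In the fibroblast gate 25.8% of 62 cycling cells and 45.4% of 1174 other cells held a Ccnd2 UMI at 1500 UMIs, and in the T gate the shares were 18.4% of 38 and 24.2% of 149. In the basal gate the order was opposite, with 31.6% of 19 cycling and 14.4% of 355 other cells. In the luminal gate, taken as the background, they were 0.419% and 0.414%. Ccnd1 was found in 31.0% of cycling and 17.8% of other luminal gate cells, and in 43.9% and 36.4% of endothelial gate cells. Ccne1, the E cyclin that acts at the start of S phase, was too sparse to compare. It was at 1.63, 1.72, 2.56 and 2.6 CPM in luminal gate cells, and its other gates held at most 7 UMIs in any tumour. Those values were 8.19, 0, 4.88 and 8.85 CPM in T, 0, 4.73, 2.0 and 0 CPM in endothelial, 2.96, 0, 1.8 and 0.667 CPM in macrophage, 0, 0, 2.82 and 0 CPM in basal and 0, 5.56, 3.92 and 2.92 CPM in fibroblast gate cells.

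Ccnd3, the remaining D cyclin, and other cell cycle genes were read from a separate list of 102 genes, of which 72 were tested. Ccnd3 was higher than luminal in endothelial (0.71, adjusted p = 0.0057), T (0.76, adjusted p = 0.024) and fibroblast gate cells (0.47, adjusted p = 0.026), lower in macrophages (-1.05, adjusted p = 3.7e-05) and not called in basal gate cells (-0.4). Cdk6, a kinase partner of the D cyclins, was at 123, 68.5, 53.6 and 133 CPM in T and 17.4, 17.3, 23.6 and 25.2 CPM in luminal gate cells (2.14, adjusted p = 1.8e-06). It was also higher in macrophages (0.57, adjusted p = 0.030) and not called in endothelial (0.07), basal (0.23) or fibroblast gate cells (0.52). E2f3, an activator of S phase genes, was lower in macrophage gate cells (-1.06, adjusted p = 0.0096). The T gate exceeded the macrophage gate in Ccnd3 (1.81) and Cdk6 (1.57).

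Inhibitors of cyclin-dependent kinases went both ways in fibroblast against luminal gate cells, with Cdkn2a, Cdkn2b and Cdkn2d higher and Cdkn1b lower. Cdkn2b (p15) was at 91.3, 50.04, 125 and 101 CPM in fibroblast and 1.36, 7.51, 5.89 and 7.26 CPM in luminal gate cells (4.01 ± 0.32 SE, adjusted p = 1.5e-11). Cdkn2a, which encodes p16 and p19Arf, was at 78.3, 68.6, 191 and 132 CPM in fibroblast and 2.81, 17.9, 54.7 and 37.8 CPM in luminal gate cells (2.4 ± 0.34 SE, adjusted p = 7.8e-07). Cdkn2d (p19Ink4d) was also higher (1.64, adjusted p = 1.2e-06). Rb1, the retinoblastoma protein that holds back E2F, was lower, at 2.61, 7.41, 3.36 and 5.84 CPM against 19.6, 24.7, 24 and 36 CPM (-2.6 ± 0.36 SE, adjusted p = 6.8e-07), as were Btg1, an antiproliferative gene (-1.82), Prim1, the DNA primase (-1.63), and Cdkn1b, p27 (-0.79, adjusted p = 0.042). In this comparison 4 of the 11 inhibitors and other brakes tested were higher and 4 lower (36.4% each way). Of 22 replication genes 12 were lower (54.5%) and 0 higher. Of 32 other mitosis genes 6 were lower (18.8%) and 2 higher (6.25%), whereas 10 of 23 G2/M members were lower (43.5%). Of all genes 24% were higher and 24.9% lower. Against endothelial gate cells fibroblasts were higher in Cdkn2a (3.36), Cdkn2b (2.37) and Cdkn2c (1.77) and lower in Kif23, a kinesin of cytokinesis (-2.85), Prim1 (-1.94) and Cdt1, which licenses origins (-1.82).

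Brakes were also called in other gates. Cdkn1a (p21) was at 300.2, 408, 301 and 299 CPM in macrophage and 153, 139.6, 165 and 219 CPM in luminal gate cells, without overlap (1.33 ± 0.18 SE, adjusted p = 3.1e-07). It was not called in fibroblast (-0.27), endothelial (-0.38), T (0.03) or basal gate cells (-0.17), and it was lower in T than in macrophage gate cells (-1.29, adjusted p = 0.00011). Cdkn2d was higher than luminal in T (2.21, adjusted p = 3.2e-05), endothelial (1.82) and macrophage gate cells (1.39). Cdkn1c (p57) was at 47, 98.6, 63.4 and 72.9 CPM in basal and 8.33, 5.14, 6.36 and 6.67 CPM in luminal gate cells, without overlap (3.05 ± 0.34 SE, adjusted p = 1.3e-07). In endothelial gate cells Cdkn2b was higher (1.63) and Rb1 lower (-0.94), and in macrophages Cdkn2a was lower (-1.02, adjusted p = 0.050). Outside fibroblasts Cdkn1b was not called against luminal (-0.55 in endothelial, -0.41 in macrophage, -1.47 in T and -0.28 in basal gate cells). Between fibroblast and endothelial gate cells none of Cdkn1a (0.11), Cdkn1b (-0.24), Ccnd3 (-0.23) and Cdk6 (0.45) was called, nor was Cdkn1b between T and macrophage gate cells (-1.07).

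Other replication and mitosis genes were called higher most often in the T gate. There 7 of 22 replication genes (31.8%) and 12 of 32 mitosis genes (37.5%) tested were higher than luminal and 0 lower, against 10.1% of all genes higher, with medians of 1.0 and 1.18, against −0.26 over all genes. In the endothelial gate 8 of 32 mitosis genes (25%) were higher and 1 lower, while 1 of 22 replication genes (4.55%) was higher and 0 lower, against 17.6% of all genes higher. In the macrophage gate 9 of 32 mitosis genes (28.1%) were higher and 1 lower, near the 23% of all genes higher, whereas of the G2/M members 1 was higher and 3 lower there. Of all genes 12%, 20.2% and 24.6% were lower in the T, endothelial and macrophage gates. Kif23 was higher than luminal in endothelial (2.08, adjusted p = 0.00018), T (2.05, adjusted p = 0.011) and macrophage gate cells (1.55, adjusted p = 0.00027). Lmnb1, a nuclear lamina gene, was higher in macrophages (1.51), and Cks1b, a partner of cyclin-dependent kinases, was lower in endothelial gate cells (-0.54, adjusted p = 0.018). Dut, which removes dUTP (2.55, adjusted p = 7.8e-09), Ckap2, a spindle protein (2.48), and Ncapd2, of condensin (2.13), were higher in T than in macrophage gate cells. In the basal gate Lig1, the replicative DNA ligase (-1.49), Knstrn, a kinetochore protein (-1.84), and Btg1 (-1.11) were lower, and Stmn1, which destabilises microtubules, was higher (0.7, adjusted p = 0.037).

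Cycling cells also differed from other cells of their gate in genes that the cycling call did not use, here given without a test. The values are shares of a cell's UMIs, and cycling luminal gate cells were deeper, with medians of 4117.5 to 5513 UMIs against 2861.5 to 3512.5 in the others. In cycling luminal gate cells the 10 luminal markers took a smaller share than in other luminal gate cells, at 10606, 17912, 5581 and 9568 CPM against 42265, 28154, 20379 and 24096 CPM in tumours 1 to 4. Cycling macrophage gate cells carried 32827, 41744, 42518 and 44169 CPM of macrophage markers against 55239.8, 66314, 78515 and 64489 CPM in the others, lower in 4 of 4 tumours. Cycling fibroblast and basal gate cells also had a lower CPM of their own markers in 4 of 4 tumours, and cycling endothelial gate cells in 2 of 4. Cycling T gate cells had a higher CPM of T markers than the others in 4 of 4 tumours. Cycling endothelial and macrophage gate cells had a lower CPM of luminal markers than the other cells of their gate in 4 of 4 tumours, cycling T gate cells in 3 of 4, and cycling fibroblast and basal gate cells in 2 of 4. The single cycling basal gate cell of tumour 2 and the 2 of tumour 4 carried 34496 and 14509 CPM of luminal markers, above the luminal marker level of other basal gate cells, so basal cycling shares in these tumours rest on cells with luminal RNA.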

How the data were processed

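The authors deposited raw counts (UMIs of each gene in each barcode) for 4 tumour libraries, made with Cell Ranger 2.2.0 and the mm10 (GRCm38) build, per the submitters' processing notes. Barcodes with fewer than 300 genes or at least 15% mitochondrial counts were removed, 24 of 36162 in all. The members, gene lists and gates were chosen with earlier results of these data known. Levels are UMIs scaled to 1000000 per gate and tumour (CPM). A fold change is on the log2 scale. Fold changes include the TMM factors and CPM values do not, so their sizes can differ. These factors were 0.79 to 0.81 in macrophage, 0.90 to 1.02 in luminal and 1.13 to 1.32 in endothelial sums.

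Raw counts were summed per gate and mouse and tested with edgeR 4.0.16 (R 4.3.3; TMM scaling, filterByExpr, quasi-likelihood test, mouse as block). Pairing comes from the animals, since each mouse supplied every gate. With mouse as a block, p-values measure how far gate differences vary from mouse to mouse. The estimate of this spread is shared over all gate sums of the 3 mice. The basal gate has sums from mice 1 and 3 only. On simulated counts for the T against luminal comparison (10231 genes), 26 of 86 genes changed 2-fold and 82 of 92 changed 4-fold were called. Of 100 genes changed at each size, 86 and 92 passed the filter, and 6 unchanged genes were called. The simulation gave all gates a shared profile, every gene the same spread and no mouse effect. In that setting 2-fold changes were often missed, and recovery in the real data was not measured. DESeq2 1.42.0 and other settings were alternatives.

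Text names 16 members throughout, the 3 members and 3 other cell cycle genes with the largest called difference in each direction per comparison, and Cdkn1a, Cdkn1b, Ccnd3 and Cdk6. A floor is 3 counts.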

Additional observations from a re-analysis of the deposited data

Results flagged for a closer look

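In 120 sets of 4 tumour values (cycling share, S side share, list sums and the 16 members followed throughout, per gate), 15 had a highest or lowest tumour far from the other 3. Chance gives about 1 in 20. Tumours 3 and 4 are of the same mouse, so the 4 values are not independent.

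Tumour 2 was highest in 9 of the 15. In the luminal gate 25.9% of its cycling cells were on the S side. In its endothelial gate the S list summed to 719 CPM, with Cdk1 at 132 CPM, Pcna at 128 CPM and Tk1 at 85.2 CPM. In its basal gate, which held 14 cells, Cdk1 was at 98.6 CPM, Birc5 at 172 CPM and Pclaf at 148 CPM. In the fibroblast gate Tyms was also highest in tumour 2, at 48.2 CPM.

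In tumour 3 luminal gate cells had the highest Rrm2 (32.9 CPM) and Hmgb2 (288 CPM), and basal gate cells the highest Ccne1 (2.82 CPM, from 2 UMIs) and Ccnd2 (280.5 CPM). Fibroblast Birc5 was lowest in tumour 4, at 42.8 CPM. Macrophage Ccnd1 was highest in tumour 1, at 66.2 CPM against 55.2 to 55.4 CPM.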

How the results depend on the processing

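No called fold change of a named member, 66 in all, turned its direction under any alternative run. Of 609 such values in the alternative runs 498 kept their call and 111 lost it. Fold changes not called in the main run were not followed. Thinning to 1000 UMIs gave cycling shares of 3.67% (fibroblast), 12.5% (endothelial), 4.54% (basal), 7.05% (macrophage) and 7.15% (luminal), with 30.3% of T cycling cells on the S side. Thinning to 2000 UMIs gave 8.44% (fibroblast), 28.8% (endothelial), 17.0% (macrophage), 28.9% (T), 10.6% (basal) and 13.8% (luminal), with 22.2% of basal and 33.1% of T cycling cells on the S side. Without thinning the shares were 8.64% (fibroblast) and 17.2% (luminal), with 27.2% and 29.3% on the S side, beside 32.5% in the T gate. A cycling minimum of 2 UMIs gave 8.77% (fibroblast), 23.3% (endothelial), 30.7% (T), 8.66% (basal) and 15.4% (luminal), with 25.1% (fibroblast), 30.5% (endothelial), 33.2% (macrophage) and 26.7% (luminal) on the S side. A minimum of 4 gave 4.78% (basal) and 7.59% (luminal), with 14.1% of luminal cycling cells on the S side. Giving cells of several gates to their non-luminal gate put the T share at 16%. Doubled gate minimums put the basal share at 4.17%, and leaving out the deepest 5% of cells put it at 2.56%. Without Mki67, Top2a, Cdk1 and Ccna2 the fibroblast S side share was 18.1% and the T share 31.1%, and without a mouse the T share was 10% to 26.7%. The cause was not tested.

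Members called in fibroblast against luminal gate cells were 19, and 11 with RLE size factors, 7 with DESeq2 and 4 to 19 with a mouse left out. In endothelial against luminal they were 11, and 7 with no replicate block and 4 to 8 with a mouse left out. In macrophage against luminal they were 10, and 6 with cells of several gates given to the non-luminal gate. In T against luminal they were 18, and 9 to 15 with a mouse left out. In basal against luminal they were 4, and 1 with doubled gate minimums and 1 to 6 with a mouse left out, where without mouse 1 or 3 the lone basal sample is assumed to vary like the other gates. In T against macrophage they were 12, and 6 to 11 with a mouse left out. In fibroblast against endothelial they were 19, and 9 to 19 with a mouse left out. The replicate block changed no other count by over 1.5 times. Depth limits sparse members such as Mki67, Ccnb1, Bub1 and Ccne1, and the basal and T gates, which hold the fewest cells.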
